A study of Mus musculus with 10 samples.

Results

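Tight junctions seal the space between epithelial cells. Of the genes measured here, 9 tight junction and junctional adhesion molecule (JAM) genes were followed: Cldn3, Cldn4, Cldn6, Cldn7, Jam2, F11r, Ocln, Tjp1 and Tjp3. They were taken by name from the deposited expression tables, in which all 9 were present among 22867 gene symbols, and no member was listed at 0 in any library. The series followed the passage of mouse embryonic stem cells (ESCs) from naive to primed pluripotency by RNA sequencing of cultured cells, in 10 libraries. Values are FPKM, in which sequenced fragments are scaled to transcript length and library size, so that levels of different genes can be set side by side per length.

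All cells were of mouse strain 129SV, from the R1 and E14 lines and from an Otx2-/- line, which lacks the homeobox transcription factor Otx2. Epiblast-like cells (EpiLCs) were made within 48 h, using bFGF together with knockout serum replacement, and are a culture model of the early post-implantation epiblast. There was 1 R1 EpiLC library with activin A at 20 ng/ml, 1 R1 EpiLC library without it, 1 E14 EpiLC library and 1 Otx2-/- EpiLC library, and the labels do not say whether E14 and Otx2-/- EpiLCs had activin A. ESCs were held with 0.8 µM PD0325901, which blocks MEK, with 3.3 µM CHIR99021, which blocks GSK3, and with LIF, and gave 2 libraries of R1, 1 of E14 and 1 of Otx2-/-. The last pair were ESC libraries of Otx2-/- cells that carry a doxycycline-inducible (tetON) Otx2 transgene, 1 with doxycycline (dox) and 1 without. The dose and duration of dox, and the number of clones behind the Otx2-/- and tetON lines, are not stated in the labels.

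Claudins are membrane-spanning proteins that form the strands of the tight junction and set which ions and solutes pass between cells, and occludin is a further membrane protein of the strand. The JAM proteins are immunoglobulin-like adhesion molecules beside the strands, and the zonula occludens proteins, encoded by the Tjp genes, are scaffolds under the membrane that tie the strands to actin. In the mouse embryo the epiblast becomes a polarised epithelium around implantation, whereas naive ESCs grow as compact domed colonies.

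The members lie apart in the genome, except for one pair. On build mm9, with coordinates from the deposited tables, Cldn4 spans chr5:135420993-135422804 and Cldn3 spans chr5:135462084-135477220, a stretch that it shares with the entry Wbscr25. The other claudins are Cldn6 at chr17:23816332-23819414 and Cldn7 at chr11:69778281-69781388. The JAM genes are Jam2 at chr16:84774368-84826620 and F11r at chr1:173367692-173394724. Ocln lies at chr13:101267322-101322453, Tjp1 at chr7:72441051-72516130 and Tjp3 at chr10:80730917-80754012, where it shares its stretch with the entry Apba3.

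The 250 bases upstream of the annotated start of each of the 4 claudins are given here because these members share a family but differed between the states by unequal amounts. They are RefSeq sequences on build GRCm38.p6, read 5′ to 3′ on the strand of the gene. Capitals mark matches on either strand to a CACCC box, the letters bound by Kruppel-like factors (CACCC, or GGGTG on the opposite strand), and to an E-box bound by Snail and Zeb repressors (CACCTG, or CAGGTG on the opposite strand).
Cldn3, chr5:134985964-134986213, plus strand: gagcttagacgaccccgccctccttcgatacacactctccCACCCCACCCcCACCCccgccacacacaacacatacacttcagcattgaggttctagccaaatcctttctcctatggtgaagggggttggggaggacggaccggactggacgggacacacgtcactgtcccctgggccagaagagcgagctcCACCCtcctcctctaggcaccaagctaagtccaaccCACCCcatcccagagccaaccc
Cldn4, chr5:134946935-134947184, minus strand: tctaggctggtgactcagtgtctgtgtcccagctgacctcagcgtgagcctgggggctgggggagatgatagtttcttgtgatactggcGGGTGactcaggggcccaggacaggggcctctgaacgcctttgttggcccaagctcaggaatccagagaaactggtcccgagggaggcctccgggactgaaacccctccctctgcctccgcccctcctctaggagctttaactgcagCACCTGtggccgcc
Cldn6, chr17:23679115-23679364, plus strand: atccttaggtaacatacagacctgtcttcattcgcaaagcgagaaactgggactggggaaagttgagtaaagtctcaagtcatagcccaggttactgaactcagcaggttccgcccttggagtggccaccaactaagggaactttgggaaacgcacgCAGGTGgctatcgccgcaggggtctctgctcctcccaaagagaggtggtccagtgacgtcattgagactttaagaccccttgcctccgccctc
Cldn7, chr11:69964529-69964778, plus strand: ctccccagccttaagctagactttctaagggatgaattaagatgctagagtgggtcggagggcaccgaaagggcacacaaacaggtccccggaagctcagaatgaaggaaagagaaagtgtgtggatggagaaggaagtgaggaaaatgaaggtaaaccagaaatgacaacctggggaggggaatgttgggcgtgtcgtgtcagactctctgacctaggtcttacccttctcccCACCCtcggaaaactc
The Cldn3 window held 5 CACCC boxes and no E-box. In Cldn4 there was 1 E-box and 1 CACCC box, in Cldn6 1 E-box and in Cldn7 1 CACCC box, and no matches overlapped. RefSeq lists 2 starts for Cldn7, of which the most upstream is shown, and the window of the downstream start held 2 E-boxes and no CACCC box. Among 32851 RefSeq windows of the same length, 52.0% held a CACCC box and 17.2% held the E-box. The OTX core TAATCC, found in 6.25% of all windows, and the Grainyhead-like motif AACCNGTT, found in 1.79%, had no match in the windows of the 8 members that have one. These matches describe letters in the windows and show no binding.

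Approximate depth, read from the smallest values of silent olfactory receptor genes, ran between 6.6M and 20.6M fragments per library and was lowest in E14 EpiLC. The naive markers Klf4, Tfcp2l1, Esrrb, Zfp42 and Nanog summed to between 132 and 234 FPKM in EpiLCs and between 1314 and 1515 FPKM in ESCs of R1 and E14, and the 5 EpiLC markers, Otx2 among them, to between 456 and 580 FPKM in EpiLCs and between 50.5 and 94.1 FPKM in ESCs. Otx2 itself stood at 15.8 FPKM in Otx2-/- EpiLCs, against 151, 107 and 39.9 FPKM in EpiLCs of R1 with activin A, R1 without and E14. In Otx2-/- ESCs it stood at 7.85 FPKM, within the 3.96 to 9.09 FPKM of R1 and E14 ESCs, and the labels do not state which part of the gene was deleted, so the ESC value does not check the label. The replicates of R1 ESC differed from each other: 11.5% of 9149 genes at 5 FPKM or more in either were apart by at least 1 on the log2 scale. Replicate 1 had 53.7 FPKM of the adhesion molecule gene Epcam and 4.44 FPKM of Grhl2, against 29.9 and 0.868 FPKM in replicate 2 and 15.8 and 0.552 FPKM in E14 ESC. The test of F11r is given below without replicate 1 as well, and other results are given at the end as ranges over each library left out.

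The first comparison asked how the members differed between EpiLCs and ESCs of the lines with intact Otx2, with 3 libraries of each state. Claudins 3, 6 and 7, occludin, Tjp1 and Tjp3 were higher in EpiLCs, and Jam2 was lower by the greatest amount of the 9. Differences were tested with limma on log2(FPKM + 1), with the cell line as a covariate and p-values adjusted over all genes tested by the Benjamini-Hochberg method at a threshold of 0.05. Of the 9 members, 6 rose and 1 fell, and Cldn4 and F11r did not pass. Over all 12244 genes tested, 9.73% rose and 10.6% fell, and the median log2 fold change was 1.15 over the 9 members and -0.09 over all genes. That last median was 0.02 after median-ratio scaling of the libraries. Counted by libraries, 6 members were higher in every EpiLC than in every ESC library and Jam2 was lower. Those 6 included F11r, which did not pass the test, and left out Tjp3, which did. Of all genes tested, 19.7% were higher in this way and 25.5% lower. These are bulk RNA values, in which fewer cells that express a gene and less RNA per cell cannot be told apart.

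Cldn7, a claudin that binds the adhesion molecule Epcam in epithelia, showed the steepest rise. Its level was 65.9, 59.5 and 42.9 FPKM in EpiLCs of R1 with activin A, R1 without and E14, against 1.50, 2.08 and 1.49 FPKM in ESCs of R1 replicate 1, R1 replicate 2 and E14. Every EpiLC library was far above every ESC library. On the log2 scale the change was 4.39 ± 0.16 (SE, 3 libraries a state, limma adjusted p = 0.000793), and taken line by line it was 4.52 in R1 and 4.14 in E14.

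Cldn6, a claudin of embryonic epithelia and of pluripotent cells, was the most abundant member in EpiLCs. It had 79.1, 89.0 and 60.9 FPKM in EpiLCs of R1 with activin A, R1 without and E14, against 16.2, 11.8 and 7.83 FPKM in ESCs of R1 replicate 1, R1 replicate 2 and E14. The states did not overlap, and the E14 library was the lowest within each. Its log2 fold change was 2.61 ± 0.17 (SE, limma adjusted p = 0.00221).

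Cldn3, a barrier-forming claudin that is close in sequence and position to Cldn4, had 42.9, 41.0 and 12.8 FPKM in EpiLCs of R1 with activin A, R1 without and E14. In ESCs of R1 replicate 1, R1 replicate 2 and E14 it had 3.33, 3.54 and 4.26 FPKM. All EpiLC values were higher, but E14 EpiLC lay far below both R1 EpiLC libraries, and the 2 lines differed little as ESCs. Over both lines the log2 fold change was 2.65 ± 0.40 (SE, limma adjusted p = 0.0125). It was 3.28 in R1 and 1.39 in E14, and the difference between the lines in this response was -1.89 ± 0.27 (SE), with a limma p of 0.00195 before adjustment that did not pass after it (adjusted p = 0.384). Wbscr25, whose entry shares the Cldn3 locus, stayed between 0.0261 and 0.383 FPKM in all 10 libraries.

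Cldn4, also a barrier-forming claudin and known as a receptor for a clostridial enterotoxin, was the most abundant claudin in ESCs. Its level was 48.4, 63.7 and 38.2 FPKM in EpiLCs of R1 with activin A, R1 without and E14, against 46.3, 31.0 and 30.8 FPKM in ESCs of R1 replicate 1, R1 replicate 2 and E14. The ranges overlapped, because R1 ESC replicate 1 was above E14 EpiLC. The difference of 0.46 ± 0.21 on the log2 scale (SE) did not pass (limma adjusted p = 0.178), with a 95% interval between -0.07 and 0.99.

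Jam2, the JAM protein best known from endothelial cells, ran the other way. It had 1.93, 0.775 and 0.504 FPKM in EpiLCs of R1 with activin A, R1 without and E14, against 74.6, 84.1 and 92.7 FPKM in ESCs of R1 replicate 1, R1 replicate 2 and E14. It was the most abundant member in ESCs and the least abundant in EpiLCs. Its log2 fold change was -5.41 ± 0.27 (SE, limma adjusted p = 0.00141). At the approximate depth, the E14 EpiLC value stood for about 3.3 fragments per kilobase of transcript, so differences among the EpiLC libraries rest on few fragments.

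F11r encodes JAM-A, the JAM of most epithelia, and did not pass the test. Its level was 37.6, 39.9 and 37.2 FPKM in EpiLCs of R1 with activin A, R1 without and E14, against 36.7, 16.9 and 17.7 FPKM in ESCs of R1 replicate 1, R1 replicate 2 and E14. The EpiLC values were close together, and R1 ESC replicate 1 lay just under them while the other ESC libraries lay far lower. The log2 fold change was 0.75 ± 0.30 (SE, limma adjusted p = 0.138, 95% interval between -0.01 and 1.51). Without R1 ESC replicate 1 it was 1.10 and passed (limma adjusted p = 0.00415).

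Ocln, which encodes occludin, was the least abundant of the members that rose. It had 9.49, 7.99 and 4.34 FPKM in EpiLCs of R1 with activin A, R1 without and E14, against 1.20, 2.17 and 1.25 FPKM in ESCs of R1 replicate 1, R1 replicate 2 and E14. The states did not overlap, and the lowest EpiLC value was again that of E14. Ocln rose by 1.67 ± 0.23 on the log2 scale (SE, limma adjusted p = 0.0105).

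The scaffold genes rose by less. Tjp1, which encodes ZO-1, had 42.9, 44.6 and 39.8 FPKM in EpiLCs of R1 with activin A, R1 without and E14, against 26.9, 29.5 and 25.4 FPKM in ESCs of R1 replicate 1, R1 replicate 2 and E14. Values within each state lay close together and the states were apart. Tjp1 rose by 0.62 ± 0.12 on the log2 scale (SE, limma adjusted p = 0.0237), with 0.62 in R1 and 0.63 in E14. Tjp3, which encodes ZO-3, had 18.2, 16.3 and 5.59 FPKM in the EpiLCs in the same order, against 4.98, 6.53 and 3.45 FPKM in the ESCs. Both R1 EpiLC libraries were above all ESC libraries, but E14 EpiLC fell below R1 ESC replicate 2. Its log2 fold change was 1.15 ± 0.23 (SE, limma adjusted p = 0.0255). Apba3, whose entry overlaps the Tjp3 locus, ran between 9.33 and 119 FPKM over the 10 libraries, and since no strand-marking step is described, reads from overlapping genes cannot be told apart.

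**Figure D1:**
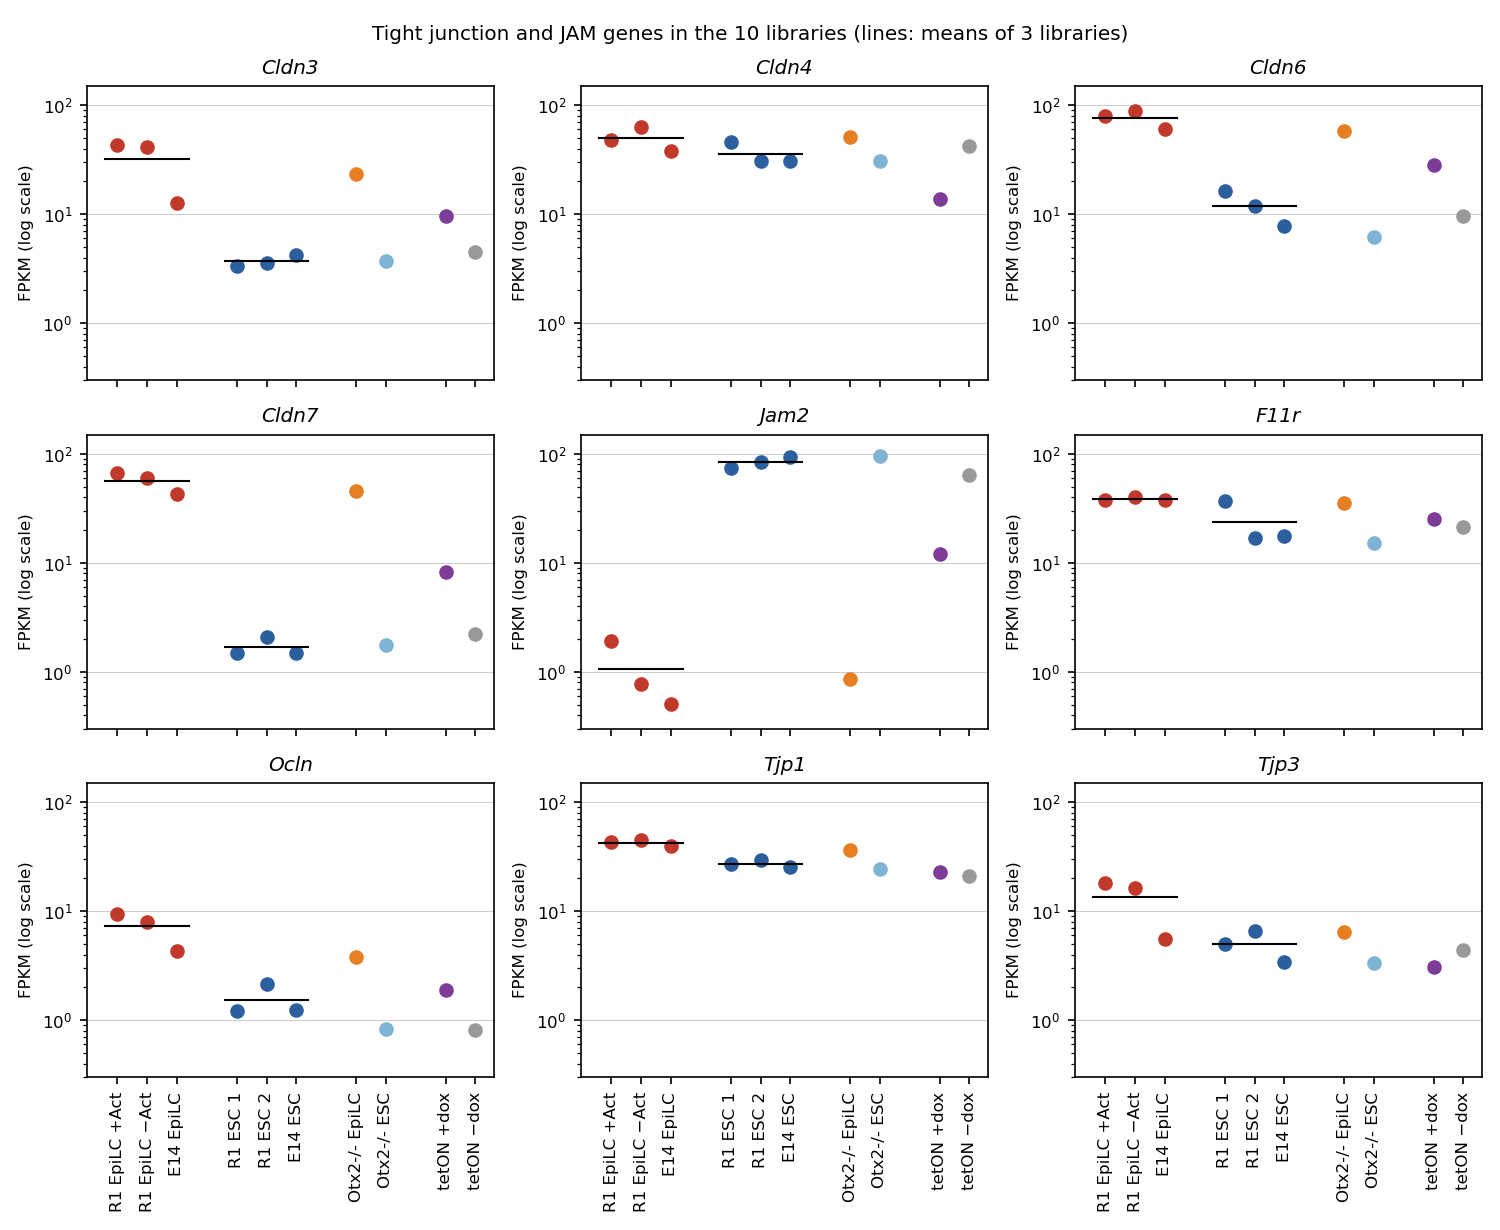
Each panel plots 1 gene, with FPKM on a log axis and 1 point for each of the 10 libraries. Black lines are means of the 3 EpiLC and the 3 ESC libraries of R1 and E14. Cldn7 and Jam2 show the widest gaps between the states, in opposite directions, and Cldn4, Tjp1 and F11r the narrowest.

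Set in order of mean level, the members traded places. In EpiLCs the order was Cldn6 (76.3 ± 14.2 FPKM), Cldn7 (56.1 ± 11.9), Cldn4 (50.1 ± 12.9), Tjp1 (42.4 ± 2.42), F11r (38.2 ± 1.43), Cldn3 (32.2 ± 16.8), Tjp3 (13.4 ± 6.81), Ocln (7.27 ± 2.64) and Jam2 (1.07 ± 0.755), each a mean with its SD over 3 libraries. Among the first 6, neighbours differed by less than the larger SD of the pair, except Cldn6 with Cldn7 and Tjp1 with F11r. In ESCs the order was Jam2 (83.8 ± 9.07 FPKM), Cldn4 (36.0 ± 8.89), Tjp1 (27.2 ± 2.10), F11r (23.8 ± 11.2), Cldn6 (11.9 ± 4.20), Tjp3 (4.99 ± 1.54), Cldn3 (3.71 ± 0.491), Cldn7 (1.69 ± 0.341) and Ocln (1.54 ± 0.543). Jam2 stood clear of the rest there. By the same measure, Cldn4 with Tjp1, Tjp1 with F11r, Tjp3 with Cldn3, and Cldn7 with Ocln did not differ beyond the larger SD.

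Leaving out single libraries changed which members passed. Without either R1 EpiLC library, 3 members passed, namely Cldn6, Cldn7 and Jam2, while the log2 fold changes of Cldn3, Ocln, Tjp1 and Tjp3 kept their sign but missed the threshold, with limma adjusted p-values between 0.0565 and 0.169. Tjp1 also missed it without E14 ESC (0.0992) or E14 EpiLC (0.101), and Tjp3 without R1 ESC replicate 2 (0.0646).

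**Figure D2:**
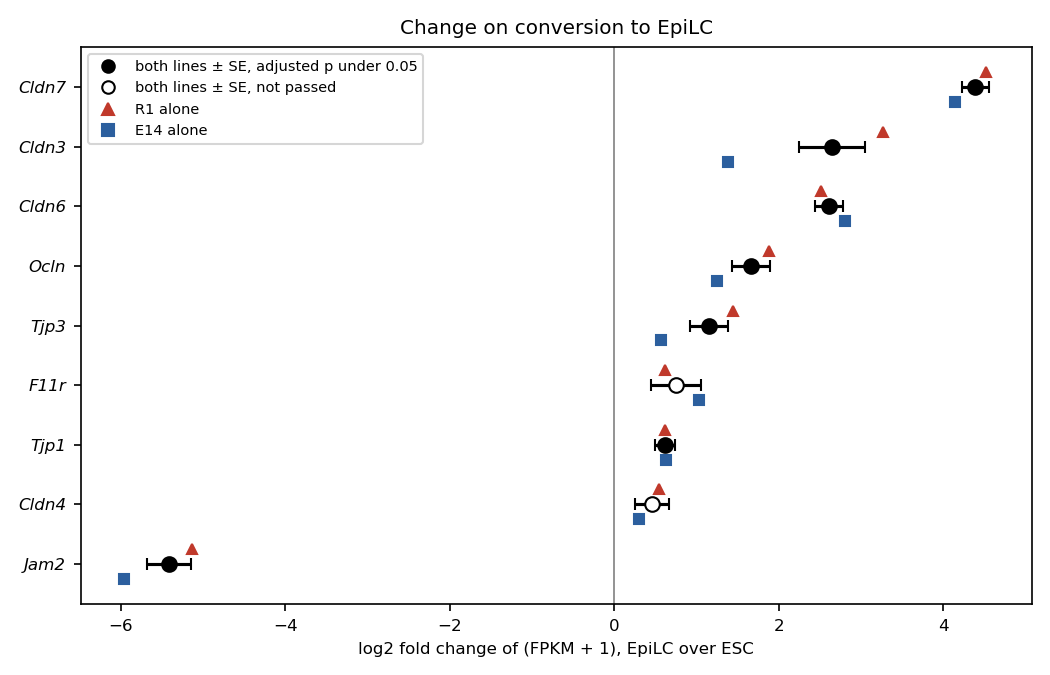
The horizontal axis gives the log2 fold change of (FPKM + 1) in EpiLCs over ESCs, and each row is 1 gene. Circles with bars are the estimates over both lines with their SE (filled where the adjusted p was under 0.05), triangles R1 alone and squares E14 alone. Cldn3 has the widest gap between the lines among the genes that rose, 3.28 in R1 and 1.39 in E14, and Tjp1 the narrowest.

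No member passed in the test of whether E14 and R1 responded unlike each other, in which 40 of 12244 genes (0.327%) passed in limma. At an unadjusted p of 0.05 Cldn3 alone of the 9 passed, beside 380 genes (3.10%). The 95% intervals of these differences were wide for several members. For Jam2 the difference was -0.82, with an interval between -2.25 and 0.60, and for F11r it was 0.42, with an interval between -1.51 and 2.34. For Tjp1 it was 0.01, with an interval between -0.73 and 0.75.

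Because FPKM is per length, the share of each gene within its family can be given. The 23 claudins with an entry summed to 265, 282 and 181 FPKM in EpiLCs of R1 with activin A, R1 without and E14, against 85.1, 66.3 and 60.7 FPKM in ESCs of R1 replicate 1, R1 replicate 2 and E14. Cldn4 made up between 18.3% and 22.6% of that sum in EpiLCs and between 46.7% and 54.4% in ESCs. Cldn6 made up between 29.8% and 33.6% in EpiLCs and between 12.9% and 19.1% in ESCs, and Cldn7 between 21.1% and 24.9% in EpiLCs and between 1.76% and 3.14% in ESCs. The make-up thus differed in every library of one state from every library of the other for these 3 genes. Cldn12, an unusual claudin that is not a member, had 14.4 ± 0.865 FPKM in EpiLCs and 12.6 ± 1.46 FPKM in ESCs (SD, 3 libraries each).

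Among the 3 JAM genes, F11r held between 87.5% and 93.7% of the summed FPKM in EpiLCs and between 15.2% and 27.0% in ESCs. Jam2 held between 1.18% and 4.70% in EpiLCs and between 54.9% and 79.7% in ESCs. Jam3 varied within ESCs, at 24.6 FPKM in R1 replicate 1, 5.09 FPKM in R1 replicate 2 and 5.86 FPKM in E14.

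**Figure D3:**
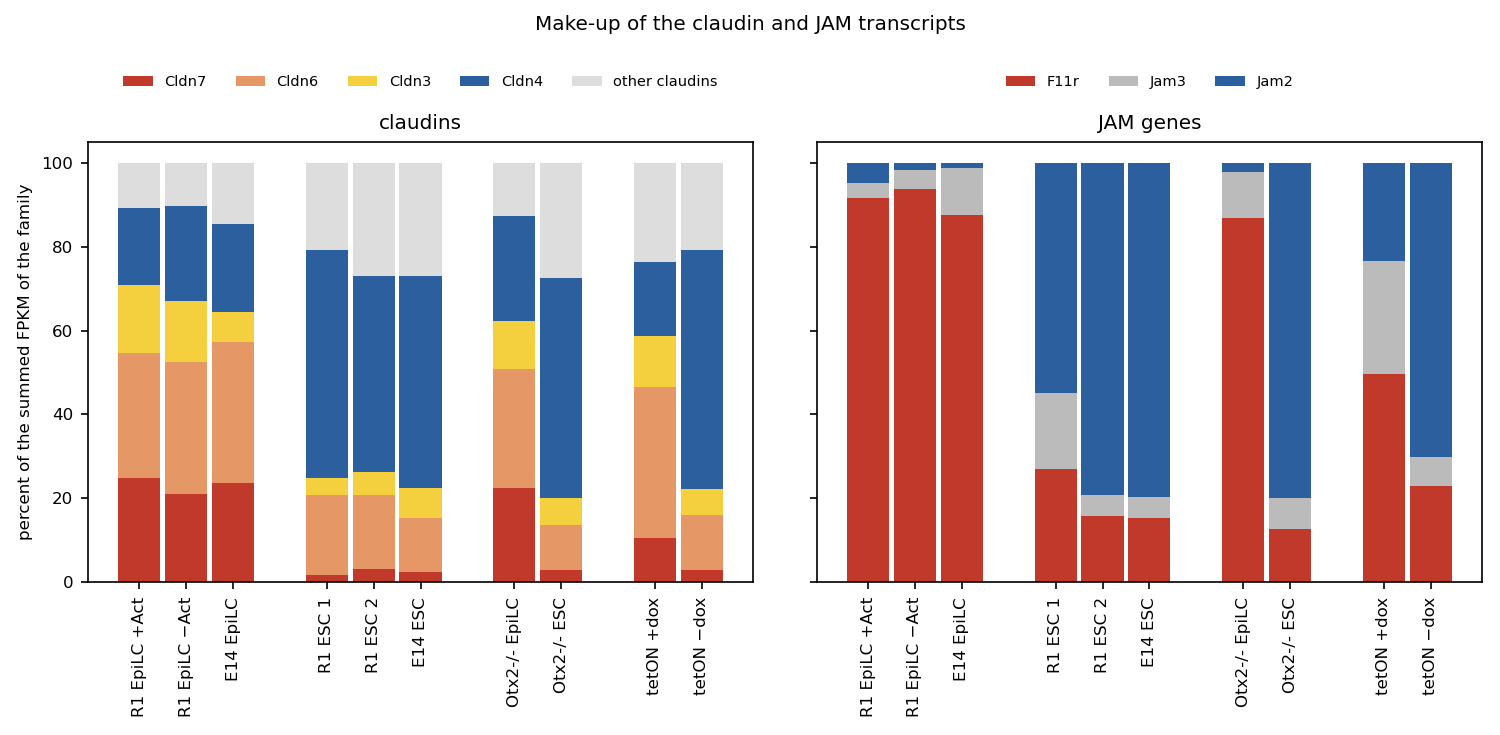
The vertical axis is the percent of the summed FPKM of 23 claudins (left) or 3 JAM genes (right), in 1 stacked bar for each library. Cldn4 takes at least 46.7% in R1 and E14 ESCs and at most 22.6% in R1 and E14 EpiLCs. In Otx2-/- cells it takes a smaller share in EpiLCs than in ESCs, where it is 52.5%. In the dox library Cldn4 takes 17.7%, against 57.0% without dox.

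The second question was whether cells without Otx2 differed from the other lines. Genotype and line go together here, so an effect of Otx2 loss cannot be told apart from a difference between lines. Otx2-/- EpiLCs had 45.5 FPKM of Cldn7, 57.8 of Cldn6, 23.2 of Cldn3, 50.8 of Cldn4 and 0.852 of Jam2, against means of 56.1, 76.3, 32.2, 50.1 and 1.07 FPKM over the 3 R1 and E14 EpiLC libraries. Apart from Cldn6, which lay just under the lowest of them (60.9 FPKM), these values fell inside the range of the 3. F11r (35.1 FPKM), Tjp1 (36.2) and Ocln (3.84) in Otx2-/- EpiLCs also lay under the lowest of the 3, by small amounts, and Tjp3 (6.48) lay inside. E14 EpiLC, with 4.34 FPKM of Ocln and 5.59 FPKM of Tjp3, was the nearest of the 3 to Otx2-/- EpiLCs for both genes. The share of all genes that lay outside the range of the 3 was not counted.

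None of the 9 members passed between Otx2-/- and the other EpiLCs in limma, at either the adjusted threshold or an unadjusted p of 0.05, whereas 20 of 12271 genes (0.163%) passed the adjusted one and 441 (3.59%) the unadjusted one. The lone Otx2-/- library is assumed in this fit to vary like the others, and the intervals were wide. The log2 fold change was -0.27 for Cldn7, with a 95% interval between -0.95 and 0.41, and -0.10 for Jam2, with an interval between -1.005 and 0.81. For Ocln it was -0.72, with an interval between -1.74 and 0.30, and for Tjp3 it was -0.80, between -2.33 and 0.74.

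Otx2-/- ESCs had 96.0 FPKM of Jam2, 1.77 of Cldn7, 6.23 of Cldn6, 3.72 of Cldn3 and 30.7 of Cldn4. These compare with means of 83.8, 1.69, 11.9, 3.71 and 36.0 FPKM in the 3 R1 and E14 ESC libraries. F11r had 15.2 FPKM in Otx2-/- ESCs, Ocln 0.832, Tjp1 24.3 and Tjp3 3.37, against lowest values of 16.9, 1.20, 25.4 and 3.45 FPKM in those 3 libraries. The Otx2-/- ESC library lay above the range of the 3 for Jam2 and below it for Cldn6, F11r, Ocln, Tjp1 and Tjp3. For Cldn4 it was nearly level with the lowest of the 3 (30.7 against 30.8 FPKM). A lone library can fall outside the range of 3 others without any difference between the groups. The share of all genes that did so was not counted. No member passed between these ESCs in limma at either threshold, where 17 genes (0.139%) passed the adjusted one and 132 (1.08%) an unadjusted p of 0.05. The widest difference among the members was that of Cldn6, at -0.79 with a 95% interval between -1.74 and 0.16. No member passed either in the test of whether the EpiLC response of Otx2-/- cells differed from that of R1 and E14, which 34 of 12271 genes (0.277%) passed, with 194 (1.58%) at an unadjusted p of 0.05.

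Within the Otx2-/- line, EpiLCs against ESCs was 1 library against 1, with no replicate check. By a rule of size, genes at 5 FPKM or more in either library were counted if (FPKM + 1) differed by 1 or more on the log2 scale. Of the 8 members at that level, 4 were higher and 1 was lower, where 6.99% of 9324 genes were higher and 8.47% lower. The log2 ratio was 4.07 for Cldn7, 3.02 for Cldn6, 2.36 for Cldn3 and 1.15 for F11r, and -5.71 for Jam2. Tjp1 had 36.2 FPKM in Otx2-/- EpiLCs and 24.3 FPKM in Otx2-/- ESCs, a log2 ratio of 0.56, and Cldn4 had a log2 ratio of 0.71. Ocln, with a log2 ratio of 1.40, did not reach 5 FPKM.

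The third question was how the members differed between ESCs with and without a high level of Otx2 from the transgene. Otx2 stood at 1059 FPKM in the library with dox and 45.8 FPKM in the one without, and the value without dox is above the 7.85 FPKM of the Otx2-/- ESC library without a transgene. Jam2 had 11.9 FPKM with dox, against 64.3 FPKM without, a log2 ratio of -2.34. Cldn7 had 8.29 FPKM with dox, against 2.20 FPKM without, a log2 ratio of 1.54. Cldn6 had 28.2 FPKM with dox, against 9.60 FPKM without, a log2 ratio of 1.46.

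For these 3 genes the library with dox lay between the ESC and the EpiLC libraries of R1 and E14. Cldn4 did not: it had 13.9 FPKM with dox, against 42.0 FPKM without, a log2 ratio of -1.53, and the dox value is the lowest of all 10 libraries. By the same rule of size, 2 members were higher and 2 lower with dox out of 7 at 5 FPKM, beside 6.42% of 9304 genes higher and 5.71% lower. Cldn3 came just under the rule, with 9.60 FPKM with dox and 4.51 FPKM without (log2 ratio 0.94).

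Of the remaining members, F11r had 25.2 FPKM with dox and 21.1 FPKM without, and Tjp1 had 22.8 FPKM with dox and 21.2 FPKM without. Ocln, at levels under the rule, had 1.88 FPKM with dox and 0.809 FPKM without, a log2 ratio of 0.67 that was 1.13 with a pseudocount of 0.1. Tjp3 had 3.09 FPKM with dox and 4.42 FPKM without. The claudin sum was close in the pair, at 78.5 FPKM with dox and 73.7 FPKM without, but its make-up was not. Cldn6 took 35.9% with dox and 13.0% without, and Cldn4 took 17.7% with dox and 57.0% without. Among the JAM genes, Jam2 took 23.4% with dox and 70.2% without.

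Without dox, the transgene line was compared with Otx2-/- ESCs. No member met the rule of size, which 2.70% of 8951 genes met. Jam2 had 64.3 FPKM without dox and 96.0 FPKM in Otx2-/- ESCs, a log2 ratio of -0.57, and Cldn6 had 9.60 FPKM without dox and 6.23 FPKM in Otx2-/- ESCs, a log2 ratio of 0.55.

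Activin A, a ligand that signals through Smad proteins and is used to hold primed pluripotency, was added to 1 R1 EpiLC library. No member met the rule between R1 EpiLCs with and without it, where 2.14% of 8963 genes did. Cldn7 had 65.9 FPKM with activin A and 59.5 FPKM without, and Cldn4 had 48.4 FPKM with and 63.7 FPKM without. The widest difference was that of Jam2, at 1.93 FPKM with and 0.775 FPKM without, a log2 ratio of 0.72 between low values.

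**Figure D4:**
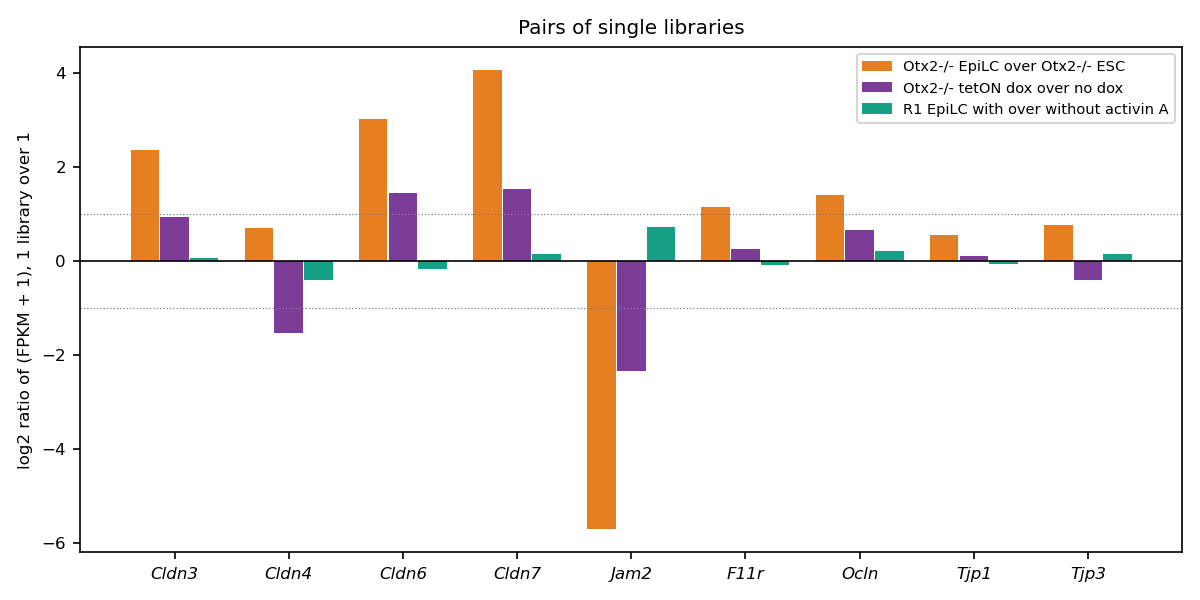
Bars give the log2 ratio of (FPKM + 1) of 1 library over another for each member, with no error since each pair has 1 library a side, and dotted lines mark the size of 1 used for counting. Jam2 is lower and Cldn6 and Cldn7 are higher in both the Otx2-/- EpiLC pair and the dox pair, Cldn4 is at -1.53 in the dox pair and -0.39 in the activin A pair, and activin A bars stay within 0.72 of zero.

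Markers of other cell types were read beside these results. Trophectoderm, the outer epithelium of the blastocyst, uses tight junctions too, and its 10 markers summed to between 36.9 and 118 FPKM in R1 and E14 EpiLCs and between 25.4 and 36.5 FPKM in ESCs, with 6 and 5 of the 10 at a mean of 1 FPKM or more. With dox the sum was 186 FPKM, against 34.6 FPKM without. Keratin Krt18 made up 144 FPKM of the dox sum, and it ran between 20.6 and 84.6 FPKM in the EpiLCs and between 2.20 and 3.06 FPKM in the ESCs. The list did not move as one: Tead4 ran between 1.14 and 5.11 FPKM in EpiLCs and between 9.42 and 16.1 FPKM in ESCs. The defining gene Cdx2 was listed at 0 with dox, against 0.0894 FPKM without, and ran between 0.0387 and 0.375 FPKM in the EpiLCs, against 2.55, 0.215 and 0.219 FPKM in ESCs of R1 replicate 1, R1 replicate 2 and E14. The 8 primitive endoderm markers summed to at most 2.41 FPKM in EpiLCs and 3.50 FPKM in ESCs, with 6.32 FPKM with dox and 2.80 FPKM without. The 7 fibroblast markers summed to between 3.38 and 8.19 FPKM in EpiLCs and between 1.10 and 1.76 FPKM in ESCs. The 6 endothelial markers, which include Cldn5, summed to between 8.67 and 10.8 FPKM in EpiLCs and between 2.22 and 3.41 FPKM in ESCs. Cldn5 alone ran between 6.22 and 8.97 FPKM in EpiLCs and between 0.313 and 1.40 FPKM in ESCs. Tie1 was also higher in EpiLCs, between 0.495 and 0.579 FPKM, against 0.0314 to 0.0921 FPKM in ESCs. The defining gene Kdr was at most 0.0365 FPKM in EpiLCs and lay between 0.221 and 0.508 FPKM in ESCs. The states overlapped for Esam, Tek and Cdh5. The part of such cells in the members' differences was not tested.

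Other genes of the junctions were read from 9 lists in the comparison of EpiLCs with ESCs. Among 21 further claudin and claudin-domain entries 5 were tested, and 1 rose, Cldn5, the claudin of endothelium, with 7.47 ± 1.39 FPKM in EpiLCs and 0.845 ± 0.545 FPKM in ESCs (SD, 3 libraries each). Of 9 other membrane proteins of the junction tested, 4 rose and 1 fell. The tricellular junction genes Lsr and Marveld2 rose by 1.61 and 1.45 on the log2 scale and the polarity gene Crb3 by 1.42, while Ildr1, also a tricellular junction gene, changed by -2.40. The median was 0.23 over the 5 claudin entries tested, which is the value of the entry Cldn25, and 0.12 over the membrane proteins, beside -0.09 over all genes tested.

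Of 23 scaffold and regulator genes tested, 6 rose and none fell in limma at the adjusted threshold. Inadl, which encodes the polarity scaffold PATJ, rose by 2.48 and Cgn, which encodes cingulin, by 2.16 on the log2 scale. Rab13, a GTPase of junction traffic, rose by 0.92 and the scaffold gene Mpdz by 0.90, and the median over the list was 0.22. These counts stand beside the 9.73% of all genes that rose.

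Lists outside the tight junction are read beside the shares of all genes tested, of which 9.73% rose and 10.6% fell. Of 15 adherens junction genes, 1 rose and 2 fell, close to those shares, with P-cadherin (Cdh3) at 1.87, nectin 1 (Pvrl1) at -1.15 and Actn1 at -0.89 on the log2 scale. Of 8 desmosome genes, 4 rose and 1 fell, with the plakophilin gene Pkp2 at 1.92 and the desmoglein gene Dsg2 at -1.68. Of 4 gap junction genes tested, none rose and 3 fell, among them Gjb5 at -2.39 and Gjc1 at -1.48. None of the genes of these lists passed in the other 4 tested comparisons.

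Partners and regulators of epithelial junctions were a further pair of lists. Epcam, which binds Cldn7, had 162 ± 33.8 FPKM in EpiLCs and 33.1 ± 19.2 FPKM in ESCs (SD, 3 libraries each), a log2 fold change of 2.39 (limma adjusted p = 0.00675). The membrane protease genes Prss8 and St14 rose by 2.68 and 0.91 on the log2 scale, and the tetraspanin gene Cd9 changed by -1.54, so that of 6 genes tested 3 rose and 1 fell. Of 12 epithelial regulators tested, 4 rose and 3 fell. Esrp1, an epithelial splicing factor, rose by 3.86 and the transcription factor gene Grhl2 by 2.67, while Klf5 changed by -3.64 and Zeb1, a repressor of epithelial genes, by -2.34. Of 11 apical and polarity genes, 2 rose and 1 fell, with Prom1 at 2.70, Podxl at 1.42 and Llgl2 at -1.13.

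**Figure D5:**
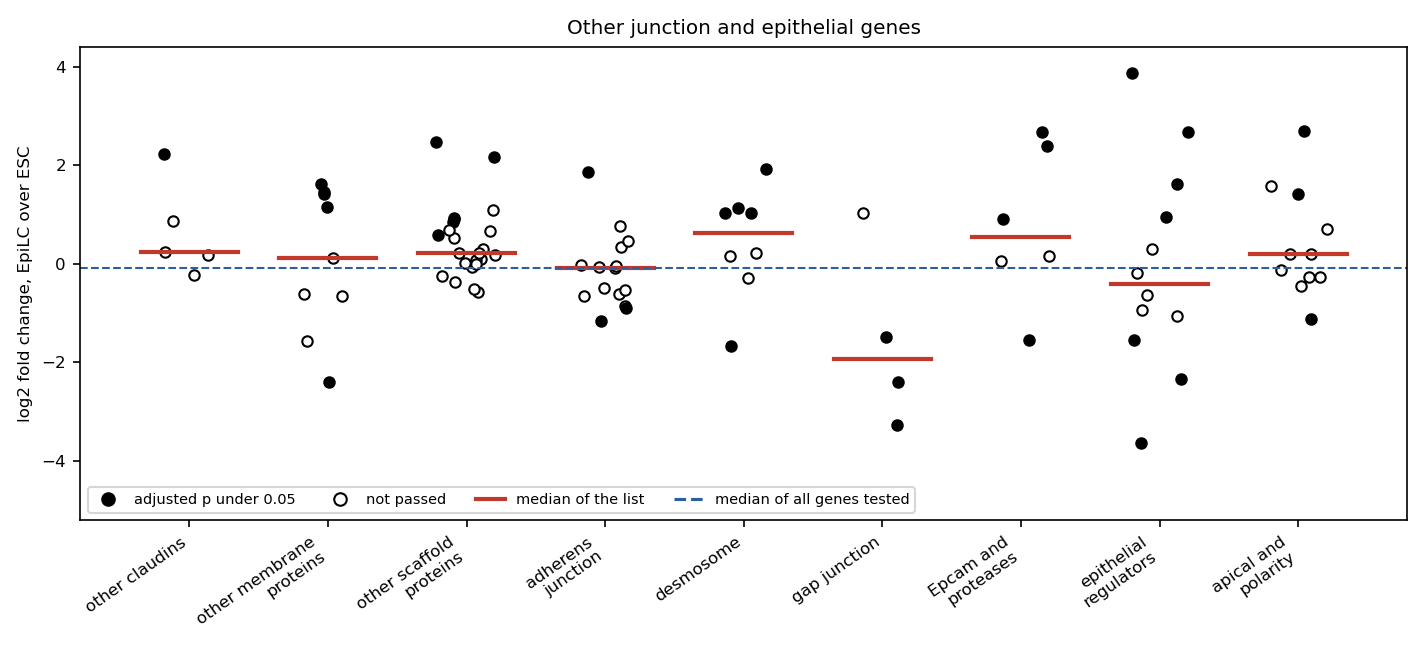
Each point is 1 gene tested, with its log2 fold change in EpiLCs over ESCs on the vertical axis and its list on the horizontal axis, filled where the adjusted p was under 0.05. Red lines are list medians and the dashed line is the median of all genes tested, -0.09. Gap junction genes have the lowest list median (-1.94).

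With dox, the genes of these other lists did not all follow the EpiLC direction. By the rule of size, 4 of 15 adherens junction genes at 5 FPKM were higher with dox and none lower. Of 4 gap junction genes at that level, none were higher and 3 were lower. These counts stand beside 6.42% of 9304 genes higher and 5.71% lower. Cgn had 8.57 FPKM with dox and 2.53 FPKM without, Inadl had 9.45 FPKM with and 1.91 FPKM without, and Cdh3 had 68.8 FPKM with and 5.90 FPKM without. Gjb5 had 7.99 FPKM with dox and 26.7 FPKM without. Grhl2 had 0.803 FPKM with dox and 1.11 FPKM without, and Esrp1 had 1.49 FPKM with dox and 1.34 FPKM without, both far under their levels in EpiLCs, where E14 EpiLC had 19.2 and 41.4 FPKM. Actn1 and St14 went against the EpiLC direction, though short of the rule of size. Actn1 had 141 FPKM with dox and 99.1 FPKM without, and St14 had 10.7 FPKM with and 18.8 FPKM without.

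For each member the genes most like it over the 10 libraries were read by Pearson's r of log2(FPKM + 1), among 8477 genes that averaged 5 FPKM or more. The libraries share lines and the EpiLC and ESC states, so these values are descriptions. Jam2 was most like Zfp42 (r = 0.997) and Esrrb (0.995), both markers of naive ESCs. Cldn7 was most like Acsl5 (0.997) and Arrdc1 (0.996), Cldn6 most like Hpn and Emb (both 0.988), and Cldn3 most like Arhgap29 (0.982) and 2810021B07Rik (0.978). Ocln was most like Gchfr (0.987) and Abcd4 (0.983), Tjp1 most like Sept6 (0.983) and Cdon (0.981), and Tjp3 most like Cry2 (0.981). For F11r the closest was Gas2l3 (0.969), and for Cldn4 it was Stx6 (0.938), the lowest of the 9.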

How the data were processed

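RNA was selected with oligo-dT beads and primed with random hexamers, per the labels' protocols, with no strand-marking step described. The deposited values are FPKM per gene, which the authors made with TopHat and Cufflinks on mm9, per the submitters' processing notes, with no versions stated. Each table held 23112 entries. After dropping 17 exact repeats, entries of the same symbol were summed to 22867 symbols. Starts in the tables count from 0 and are printed from 1. Symbols with a mean of at least 1 FPKM were tested on log2(FPKM + 1) with limma 3.58.1 in R 4.3.3 (mean-variance trend, two-sided), adjusted over all genes tested. On this scale the changes of low genes are understated. The fits were also run on simulated data with independent normal noise and no difference between lines or activin A treatments. That run cannot check how the fits handle such differences. The members, lists and tests were chosen with earlier results of these data known. Genes named were all 9 members, up to 4 passing genes of each other list, 5 state genes and the 2 genes most like each member. Epcam and Grhl2 in ESCs, Jam3 and Cldn12 were added after their values were seen. So were the marker genes Krt18, Tead4, Cdx2, Kdr, Tie1, Esam, Tek and Cdh5. Some genes that this rule takes are not reported here. An entry Cldn25 lies at the place of Cldnd1 and was left out of the claudin sums. The labels' protocols call the cultures independent replicates, so p-values rest on the spread between few libraries. Only R1 ESC had 2 libraries with the same label. R1 EpiLCs with and without activin A were fitted as libraries of the same state, so their difference is part of that spread. In the fit of 8 libraries, which had no line covariate, the difference between R1 and E14 is part of it too. Alternatives changed the pseudocount, the filter on low values, the scaling, the covariate, the libraries fitted and the handling of repeated symbols, and left out each library in turn.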

Additional observations from a re-analysis of the deposited data

How the results depend on the processing

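All 7 members that passed between EpiLCs and ESCs kept their direction under every alternative run. Tjp3 missed the threshold without the line covariate (limma adjusted p = 0.103) and in the fit of 8 libraries (0.113), and F11r passed under quantile scaling (log2 fold change 0.92, limma adjusted p = 0.0479); the cause was not tested. Genes passing numbered 2484, and 1644 with a mean of at least 5 FPKM, where fewer genes are tested. Leaving out a library gave between 398 and 4118 genes, the most without R1 ESC replicate 1, and between 3 and 8 members.

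In the other tests no member passed under any alternative. Between Otx2-/- and other EpiLCs 20 genes passed, 59 without a filter, and between 20 and 42 with a library left out. Between Otx2-/- and other ESCs 17 passed, 34 without a filter, 5 at a mean of 5 FPKM, 37 with the ESC libraries alone, and between 17 and 26 with a library left out. For the difference in response of Otx2-/- cells 34 passed, 55 without a filter and 11 at 5 FPKM. For that of E14 40 passed, 17 with a pseudocount of 0.1, 13 at 5 FPKM, and between 0 and 127 with a library left out; it was 0 without either R1 EpiLC library. Between the R1 ESC replicates the count of members was 1, F11r, and 0 under median-ratio and quantile scaling.

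Signs that turned were all of small differences that did not pass, and the cause was not tested. With a library left out, Otx2-/- against other EpiLCs ran between -0.82 and 0.01 for Cldn3, -0.13 and 0.24 for Cldn4, and -0.30 and 0.18 for Jam2. Otx2-/- against other ESCs ran between -0.051 and 0.091 for Cldn3, which was -0.014 under quantile scaling, and between -0.0052 and 0.15 for Cldn7. The Otx2-/- difference in response ran between -0.83 and 0.0022 for Cldn3. The E14 difference ran between -0.52 and 0.043 for Cldn4, -0.12 and 0.95 for F11r, and -0.051 and 0.078 for Tjp1, which was -0.079 under median-ratio and -0.12 under quantile scaling.

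By replicate number, no paired analysis was possible because the groups compared share fewer than 2 numbers; the cell line was a covariate between EpiLCs and ESCs. Leaving out the lone Otx2-/- library, or an E14 library in the test of the lines, left no difference to estimate. Depth is approximate and limits values near 1 FPKM, such as Jam2 in EpiLCs.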
